A study of Mus musculus with 4 samples.

Results

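Lhx2, Sox9, Nfatc1, Tcf7l1, Tbx1, Foxc1 and Gata6 are transcription factors of the hair follicle lineages. They were taken by symbol from the deposited gene list and are 7 of its 32479 genes. All 7 were measured in single cells of the epidermis of 4 mice. Both control mice carried the floxed CerS4 alleles without Cre (CerS4fl/flK14Cre-). Both CerS4epi-/- mice carried them with a Cre recombinase under the keratin 14 promoter, so that CerS4, a ceramide synthase, is deleted in keratin 14-expressing epithelium. All were C57BL/6N females at postnatal day 19 (P19). Cells of digested back skin were labelled with sample tags and run on BD Rhapsody. Each mouse is 1 deposited sample, called a library here, whether or not mice were pooled in a run.

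In the hair follicle, stem cells reside in the outer bulge, an inner layer of bulge cells lies against the hair shaft, and the upper follicle joins the sebaceous gland and the interfollicular epidermis (IFE). Lhx2 and Sox9 are required to specify and keep bulge stem cells. Nfatc1 and Foxc1 keep them quiescent, Tcf7l1 (also called TCF3) represses Wnt target genes, Tbx1 supports their self-renewal, and Gata6 marks cells of the upper follicle and the sebaceous duct.

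RefSeq promoters of 4 members, Lhx2, Tcf7l1, Foxc1 and Tbx1, were searched on both strands for short motifs of the members' own families, since these genes were followed as one group. The motif of GATA factors was searched as AGATAA, that of calcineurin-responsive NFAT factors as GGAAAA and that of the LEF family as CTTTGA. The motif of LIM homeobox factors was searched as TAATTA, that of SOX factors as ACAATG, that of forkhead factors as GTAAACA and that of T-box factors as GGTGTGA. Neither match overlapped another motif. Of the 6 promoters of 250 bases before a start site, 2 held a motif, both times the NFAT motif. It was found in 20.4% of all 32851 promoters of that length. Both promoters are shown 5′ to 3′ on the gene's strand (GRCm38.p6), with the motif, TTTTCC on this strand for Lhx2, in capitals. The Lhx2 window is chr2:38351058-38351307 and the Foxc1 window chr13:31806396-31806645.
Lhx2: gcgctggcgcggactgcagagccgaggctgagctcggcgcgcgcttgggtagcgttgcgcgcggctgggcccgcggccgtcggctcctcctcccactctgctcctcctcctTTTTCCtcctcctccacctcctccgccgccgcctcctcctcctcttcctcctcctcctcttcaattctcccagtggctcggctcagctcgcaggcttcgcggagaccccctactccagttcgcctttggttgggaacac
Foxc1: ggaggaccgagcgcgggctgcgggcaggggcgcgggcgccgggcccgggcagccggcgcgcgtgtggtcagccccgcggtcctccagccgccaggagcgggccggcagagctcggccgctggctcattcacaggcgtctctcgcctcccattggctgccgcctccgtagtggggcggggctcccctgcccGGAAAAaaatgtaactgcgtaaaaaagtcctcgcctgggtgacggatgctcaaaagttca
Both windows were rich in G and C, at 68.4% for Lhx2 and 70.8% for Foxc1. A match of these letters is a description of the window and not a binding site.

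On GRCm39 all 7 were protein-coding genes with the identifiers of the deposited list. Lhx2 lay at chr2:38229293-38259759 on the plus strand with 5 exons in its canonical transcript. Sox9 lay at chr11:112673009-112678586 on the plus strand with 3 exons, and Foxc1 at chr13:31990616-31996459 on the plus strand as a single-exon gene. Gata6 lay at chr18:11051565-11086995 on the plus strand with 7 exons. The genes on the minus strand were Nfatc1 at chr18:80649266-80756295 with 10 exons, Tcf7l1 at chr6:72603354-72766589 with 12 and Tbx1 at chr16:18399729-18409421 with 7. Introns were counted, so other gene models inside these bounds could take or give reads. Tcf7l1 overlapped 5 gene models on its own strand and Foxc1 overlapped 1 (Gm11379). Of the entries of Tcf7l1, 108 of 1418 were not whole numbers, which is how reads shared with another gene appear, against 6 of 3461 for Gata6, 3 of 5971 for Nfatc1 and 0 for the other members. Tcf7l1 values are therefore the least certain. Every member but Foxc1 also had a gene model on the opposite strand, such as Gata6os at Gata6, and reads of such a pair cannot be told apart where strand was not used.

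Barcodes with at least 1200 estimated counts and at most 20% mitochondrial counts were taken as cells, which left 8480 and 9086 cells in control mice 1 and 2 and 9017 and 7567 in CerS4epi-/- mice 1 and 2. Median depth was 3266.5 to 3884 counts per cell, and the libraries held 39231945 to 53106317 counts. Cell classes were set by marker genes that are not members. An outer bulge-like cell had a UMI of at least 2 of 8 genes (Cd34, Postn, Lgr5, Shisa2, Pdzrn3, Cyp1b1, Npnt, Tnc), 1 of them Cd34, Shisa2, Cyp1b1 or Tnc. An inner bulge-like cell had 2 of Krt75, Timp3, Bmp6 and Fgf18, and an upper hair follicle-like cell had Krt79 and in all 4 of 7 upper follicle genes. IFE basal-like, IFE differentiated-like and IFE keratinized-like cells lacked Krt79 and the bulge combinations and were split by their keratins and cornified envelope genes. In control mice 1 and 2 and CerS4epi-/- mice 1 and 2, in this order, the outer bulge-like class held 89, 56, 292 and 238 cells, the inner bulge-like class 80, 63, 37 and 43, the upper hair follicle-like class 658, 495, 1495 and 1371, and the IFE basal-like class 3488, 3818, 3293 and 2939. This order of mice is kept wherever 4 values are given. Each control value in the bulge thus rests on fewer than 100 cells.

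The targeted gene checked the labels where it was abundant. In sebaceous gland-like cells, Cers4 was at 2635 and 2039 CPM (counts of the gene per 1e6 counts of the class in 1 mouse) in controls and at 265 and 425 CPM in CerS4epi-/- mice, in 7 to 36 cells per mouse. Among IFE basal-like cells it gave 9 to 12 counts in every mouse and could check nothing there. Before any comparison, the cell barcodes of the libraries were set against each other. Libraries of the same genotype shared 0 where 87.1 and 77.1 were expected from their sizes, while libraries of different genotypes shared 64 to 102. The labels name no run or cartridge. Samples of 1 genotype that were pooled by sample tags in 1 cartridge would share no barcodes, and whether they were is not given in the sources used here. If so, cartridge and genotype cannot be told apart. Each group is 2 mice, so an exact permutation test of 1 value cannot go below p = 0.33, and the other tests are edgeR quasi-likelihood tests across all genes on the counts summed per mouse and class, with adjusted p-values.

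In control mice the levels of the 7 factors differed between the follicle classes, and the order of the classes was not the same for each factor. Lhx2, the LIM homeobox factor of the bulge, was at 419 ± 49.96 CPM (SD, n = 2) in outer bulge-like cells, 149 ± 16.5 in inner bulge-like cells and 25.4 ± 3.04 in upper hair follicle-like cells, and in both mice each class lay above the next. In T cell-like cells no Lhx2 count was found, which allows at most 13.9 and 21.1 CPM in the control mice (3 counts, counting error only). Sox9 peaked one layer further in, at 1542 ± 184 CPM in inner bulge-like cells against 872 ± 40.4 in outer bulge-like and 452 ± 10.02 in upper hair follicle-like cells, again with no overlap between neighbours. IFE basal-like cells held 54.7 ± 8.09 CPM of Sox9.

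Nfatc1 and Foxc1, both linked to quiescence, led in the outer bulge-like class. Nfatc1 was at 364 ± 64.4 CPM there, 264 ± 22.6 in inner bulge-like and 178 ± 15.4 in upper hair follicle-like cells, each step being present in both mice. It was also the member most clearly found outside the epithelium, at 98.1 ± 17.2 CPM in Langerhans cell-like cells. Foxc1 was at 338 ± 39.2 CPM in outer bulge-like cells, above 246 ± 64.2 in inner bulge-like cells, which did not differ beyond their spread from 244 ± 0.374 in upper hair follicle-like cells. Sebaceous gland-like cells held 127 ± 30.6 CPM of Foxc1.

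Gata6 was at 236 ± 25.4 CPM in outer bulge-like cells and 152 ± 43.5 in upper hair follicle-like cells, with 19.5 ± 3.35 in inner bulge-like cells. The last value did not stand apart from the 23.4 ± 8.85 CPM of Langerhans cell-like cells. Tcf7l1 was a bulge gene of low level, at 102 ± 0.493 CPM in inner and 95.3 ± 24.9 in outer bulge-like cells, which did not differ beyond their spread, and at 14.4 ± 3.25 in upper hair follicle-like cells. Tbx1 was the rarest, at 31.5 ± 12.2 CPM in inner and 8.05 ± 5.29 in outer bulge-like cells. The outer bulge-like value of Tbx1 rested on 5 counts over both control mice. The outer bulge-like class of the controls also held upper follicle transcripts: 43.8% and 30.4% of its cells passed the upper hair follicle gate too. Its Cst6 (21986 and 19630 CPM) and its Defb6 (5602 and 5639 CPM) lay above the upper hair follicle-like level (7463 and 6708, and 5367 and 4002 CPM). Its 7 upper follicle markers summed to 30943 and 27923 CPM, against 17237 and 14836 in upper hair follicle-like cells. Its IFE differentiation markers summed to 16612 and 25775 CPM and its IFE basal markers to 11962 and 10079. The class is thus set by its gate and is not a clean layer of the follicle. The part of these transcripts in its Gata6, Foxc1 and Nfatc1 levels was not tested.

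**Figure D1:**
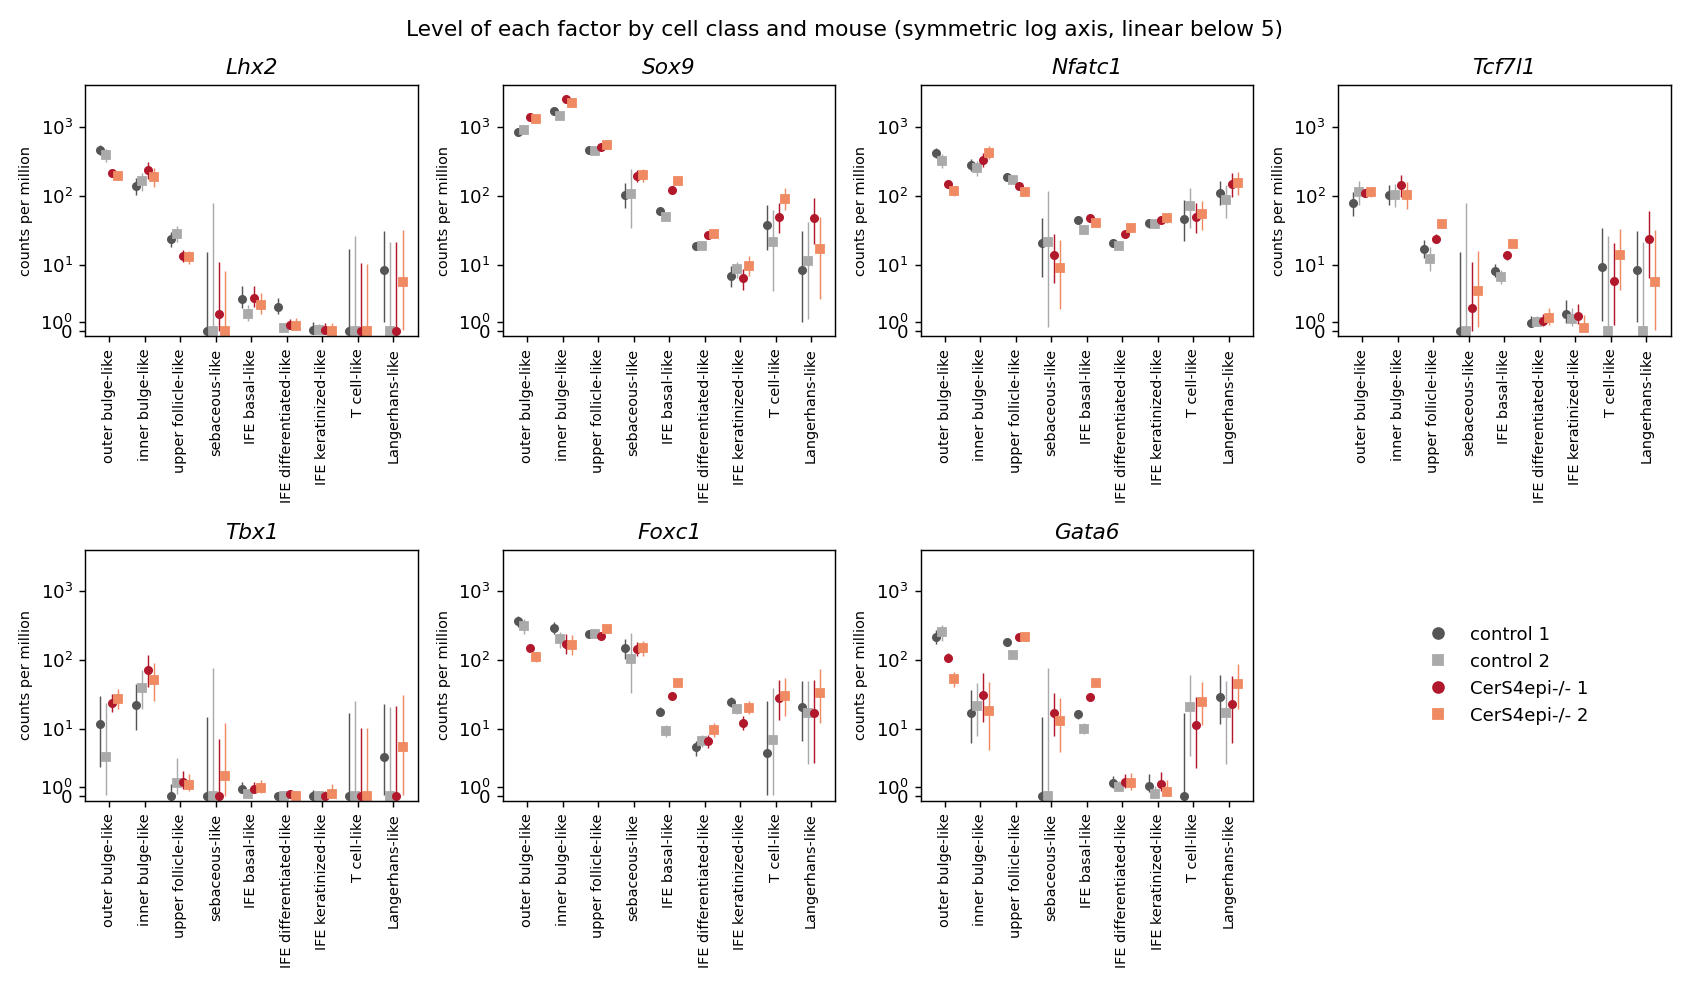
Level of each of the 7 factors in each mouse by cell class, in CPM of that class on an axis that is linear near 0 and logarithmic above; each point is 1 mouse, coloured by genotype, and bars are 95% Poisson intervals of the counts. Lhx2 falls stepwise from outer bulge-like (419 CPM, control mean) to upper hair follicle-like cells (25.4 CPM), whereas Gata6 drops in inner bulge-like cells (19.5 CPM) and returns in upper hair follicle-like cells (152 CPM).

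Over 18 points (9 classes in 2 control mice), the most alike pair of members was Lhx2 and Tcf7l1 (Pearson r = 0.93 of log2(CPM + 1)), and the least alike was Tbx1 and Gata6 (r = 0.50). The 2 mice of a class share cell type, and classes differ in depth, so these values describe the profiles only. Among 8946 genes that are no members or class markers, Calhm5, Rnase12 and Scnn1g followed Lhx2 most closely (r = 0.94 to 0.95). Aplp2, Slc27a1 and Hpcal1 followed Sox9 (0.90 to 0.91), and Scnn1g, Apbb1 and Cald1 followed Tcf7l1 (0.91 to 0.92). Nfatc1 and Gata6 shared Timp2 and Fst among their 3 closest genes, at 0.86 and 0.87 for Gata6, and Sulf2 was the other one for Nfatc1 (0.87 to 0.92). Itgb8, Fzd7 and Efnb2 followed Foxc1 (0.90 to 0.94), and Pdlim3, Serpinb11 and Thsd1 followed Tbx1 (0.93 to 0.97).

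In outer bulge-like cells, 4 factors were lower and 1 was higher in CerS4epi-/- mice. Lhx2, Nfatc1, Foxc1 and Gata6 fell by 2.01-fold to 2.75-fold, while Sox9 rose by 1.56-fold. All 7 members passed the filter on low counts here, Tbx1 only through the CerS4epi-/- mice. Of the 7, 5 passed an adjusted p of 0.05, against 6.29% of the 8142 genes tested (2.87% higher and 3.41% lower).

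Lhx2, the stem cell factor that restrains bulge activation, was at 454 and 383 CPM in control mice and at 210 and 195 CPM in CerS4epi-/- mice. The genotypes did not overlap, and the fitted level was 2.01-fold lower (log2 fold change -1.01 ± 0.17 SE, adjusted p = 0.00858, edgeR). Nfatc1, the calcineurin-responsive factor of quiescent bulge cells, was at 410 and 319 CPM against 147 and 116. Both CerS4epi-/- mice lay below both controls, with a log2 fold change of -1.43 ± 0.20 (adjusted p = 0.00351). Foxc1 was at 366 and 310 CPM against 153 and 111, again without overlap (-1.31 ± 0.20, adjusted p = 0.00668). Gata6 was at 218 and 254 CPM in controls and at 109 and 53.5 CPM in CerS4epi-/- mice, which differed from each other more than the controls did. Its log2 fold change was -1.46 ± 0.30 (adjusted p = 0.0241), and without control replicate 1 or 2 it was -1.57 or -1.34 and no longer passed.

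Sox9 went the other way, from 843 and 900 CPM in controls to 1368 and 1268 CPM in CerS4epi-/- mice, the 2 genotypes lying apart (log2 fold change 0.64 ± 0.15, adjusted p = 0.0343). The Sox9 call was the least steady of the 5 and held in 5 of 15 other ways of processing. Tcf7l1 was at 77.6, 113, 110 and 112 CPM, and control mouse 2 lay with the CerS4epi-/- mice (0.31 ± 0.24, adjusted p = 0.550). Tbx1 was at 11.8, 4.31, 24.3 and 27.9 CPM. These did not overlap, but with 4, 1, 44 and 35 counts the difference did not pass (1.60 ± 0.55, adjusted p = 0.132). Tbx1 was tested only because it was high enough in CerS4epi-/- mice, so its difference is not read as a result.

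The classes compared were not alike in other respects. The 8 outer bulge markers that set the class summed to 1073 and 1076 CPM in controls and 1009 and 1085 CPM in CerS4epi-/- mice, a level that the gate itself conditions. Within the sum, Cyp1b1 (318 and 258 against 189 and 191 CPM) and Postn (192 and 211 against 161 and 107) were lower in CerS4epi-/- mice, and Pdzrn3 (230 and 177 against 323 and 420) and Shisa2 (127 and 112 against 168 and 177) were higher. The 7 upper follicle markers summed to 30943 and 27923 CPM against 19566 and 14729. Cst6 (21986 and 19630 against 14905 and 11380) and Defb6 (5602 and 5639 against 1513 and 814) made up most of that difference, while Krt79 (1716 and 1254 against 1670 and 1260) and Plet1 (655 and 526 against 632 and 608) overlapped and Lrig1 (147 and 94.8 against 192 and 172) was higher. The IFE differentiation markers summed to 16612 and 25775 against 8558 and 6384. Cd34 was at 26.5 and 43.1 CPM against 11.6 and 16.8, and Krt6a, a keratin of the companion layer and of stressed epidermis, at 1015 and 1380 against 3161 and 7240. Median mitochondrial shares were 8.76%, 7.81%, 10.4% and 12.0%. The part of these in the fall of the 4 factors was not tested. As an alternative, cells that also passed the upper hair follicle gate, 30.4% to 43.8% per mouse, were left out. Nfatc1 (-1.52) and Foxc1 (-1.60) then passed, whereas Lhx2 (-0.73), Gata6 (-1.22) and Sox9 (0.52) kept their direction without passing. That gate needs 4 markers in a cell and so depends on depth, with medians of 3210, 3247, 5400 and 4287.5 counts. The marker levels of the remaining cells are not given here. In cells with at most 10% mitochondrial counts, Lhx2 (-1.47), Nfatc1 (-1.17) and Foxc1 (-1.23) passed, and Gata6 (-1.01) and Sox9 (0.35) did not.

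**Figure D2:**
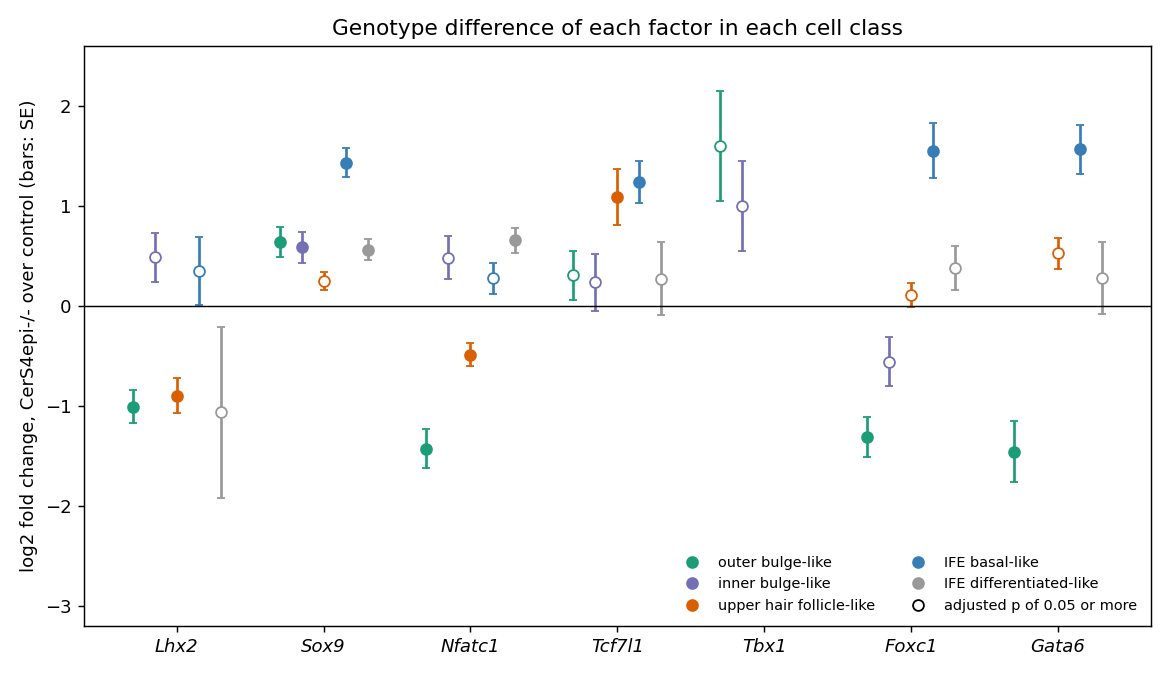
Log2 fold change (CerS4epi-/- against control) of each factor in 5 cell classes, with bars of 1 standard error and filled points where the edgeR adjusted p was below 0.05. Lhx2, Nfatc1, Foxc1 and Gata6 lie below 0 in outer bulge-like cells (-1.01 to -1.46), whereas Sox9, Tcf7l1, Foxc1 and Gata6 lie above 0 in IFE basal-like cells (1.24 to 1.56).

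In inner bulge-like cells, Sox9 was the single member to pass. It was at 1672 and 1412 CPM in controls and 2492 and 2197 CPM in CerS4epi-/- mice, apart in all 4 mice (0.59 ± 0.15, adjusted p = 0.0276), in a comparison where 5.43% of 4128 genes passed (2.11% higher and 3.32% lower). This call held in 5 of 12 other ways of processing. Of the 6 members tested, Lhx2 was at 137, 161, 232 and 187 CPM (0.48 ± 0.24, adjusted p = 0.331) and Nfatc1 at 280, 248, 328 and 420 CPM (0.48 ± 0.22, adjusted p = 0.267). In both, the CerS4epi-/- mice lay above the controls without passing. Foxc1 was at 292, 201, 173 and 168 CPM (-0.56 ± 0.25, adjusted p = 0.251). Tcf7l1 (0.23 ± 0.29) and Tbx1 (1.00 ± 0.45) did not pass, and Gata6, with 12 counts in controls, was not tested. Tbx1, with 8, 11, 16 and 11 counts, passed the low-count filter here only through the CerS4epi-/- mice, and its difference is not read. The class held 37 to 80 cells per mouse, which limits the precision of these values. It was also not alike between genotypes. Its IFE differentiation markers summed to 12116 and 15589 CPM in controls and 2561 and 2532 CPM in CerS4epi-/- mice. The IFE basal markers summed to 27507 and 25047 against 30386 and 35425, and Krt75 was at 1015 and 1127 against 761 and 770. The part of these in the Sox9 difference was not tested.

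In upper hair follicle-like cells, Lhx2 and Nfatc1 again fell and Tcf7l1 rose, 3 of 6 members tested, while 12.7% of 11340 genes passed (6.98% higher and 5.71% lower). Lhx2 was at 23.3 and 27.6 CPM in controls and 13.6 and 12.8 CPM in CerS4epi-/- mice (-0.90 ± 0.18, adjusted p = 0.0107). Nfatc1 was at 189 and 167 CPM against 135 and 112 (-0.49 ± 0.12, adjusted p = 0.0245). Both were separated by genotype. Nfatc1 no longer passed without control replicate 1 (-0.39) or CerS4epi-/- replicate 2 (-0.36). Tcf7l1, the Wnt target repressor, was at 16.7 and 12.1 CPM against 23.6 and 38.3, the highest in CerS4epi-/- mouse 2 (1.09 ± 0.28, adjusted p = 0.0340).

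Gata6, which marks this compartment, was at 182 and 121 CPM in controls and 215 and 214 CPM in CerS4epi-/- mice, where the difference was near the threshold and did not pass it (0.53 ± 0.15, adjusted p = 0.0544). Sox9 was at 459, 445, 513 and 532 CPM (0.25 ± 0.09, adjusted p = 0.104). Foxc1 was at 244, 245, 227 and 285 CPM, and the genotypes overlapped (0.11 ± 0.12, adjusted p = 0.625). Tbx1 gave 0, 3, 12 and 8 counts and was not tested. The upper follicle markers of this class summed to 17237 and 14836 CPM in controls and 26506 and 32987 CPM in CerS4epi-/- mice, and Plet1, a junctional zone marker, was found in 53.8%, 36.6%, 57.0% and 62.7% of cells. In cells with a Plet1 UMI, Lhx2 (-1.35) and Nfatc1 (-0.62) still passed and Tcf7l1 (0.72) did not. In cells without one, Nfatc1 (-0.46) passed, Tcf7l1 (1.04) did not, and Gata6 (0.62) did.

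Whether the genotype effect differed between outer bulge-like and upper hair follicle-like cells was tested directly in a model with the mouse as a term. The genotype effects of Foxc1, Gata6 and Nfatc1 were lower in outer bulge-like cells, while 2.07% of 10754 genes passed this test. The difference of the log2 fold changes (outer bulge-like minus upper hair follicle-like) was -2.03 ± 0.33 for Gata6 (adjusted p = 0.00323, edgeR). It was -1.41 ± 0.25 for Foxc1 (adjusted p = 0.00689) and -0.94 ± 0.20 for Nfatc1 (adjusted p = 0.0209). Of 11 other ways of processing, 9 kept the call of Gata6, 9 that of Foxc1 and 4 that of Nfatc1. Without outer bulge-like cells that also passed the upper hair follicle gate, Foxc1 (-1.62) passed. Gata6 (-1.71) and Nfatc1 (-0.97) then kept their direction without passing. Lhx2, lower in both classes, showed a difference of -0.11 ± 0.25 (adjusted p = 0.909), and Sox9 one of 0.40 ± 0.18 (adjusted p = 0.381). Tcf7l1 (-0.73 ± 0.37) and Tbx1 (0.40 ± 1.58) did not pass. The upper follicle markers of the 2 classes also went opposite ways with genotype. In outer bulge-like cells they summed to 30943 and 27923 CPM in controls against 19566 and 14729 in CerS4epi-/- mice. In upper hair follicle-like cells they summed to 17237 and 14836 against 26506 and 32987. Their part in the differences of Foxc1, Gata6 and Nfatc1 was not tested.

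In IFE basal-like cells, 4 follicle factors rose: Sox9, Tcf7l1, Foxc1 and Gata6, each by 2.36-fold to 2.96-fold. These cells lack Krt79 and the bulge marker combinations by definition, but other upper follicle transcripts were found in them. The upper follicle markers summed to 256 and 216 CPM in controls and 376 and 530 CPM in CerS4epi-/- mice. Their part in the rise of the 4 factors was not tested. Of the 6 members tested, 4 passed in the higher direction, against 4.15% of 12881 genes (2.69% lower and 6.83% in either direction).

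Sox9 was at 60.5 and 49.0 CPM in controls and 121 and 162 CPM in CerS4epi-/- mice (1.43 ± 0.15, adjusted p = 0.00144). Gata6 was at 16.5 and 10.3 CPM against 29.7 and 46.7 (1.56 ± 0.24, adjusted p = 0.00873). For both, each CerS4epi-/- mouse lay above both controls, and the call held in 13 of 13 other ways of processing. Foxc1 was at 18.1 and 9.47 CPM against 30.8 and 47.1 (1.55 ± 0.27, adjusted p = 0.0129). It was highest in CerS4epi-/- mouse 2, and without that mouse the log2 fold change was 1.23 and did not pass. Tcf7l1 was at 8.16 and 6.57 CPM against 13.6 and 20.03 (1.24 ± 0.21, adjusted p = 0.0114). Lhx2, at 3.55, 1.88, 3.67 and 2.85 CPM (0.35 ± 0.34, adjusted p = 0.597), and Nfatc1, at 44.2, 31.4, 47.3 and 40.3 CPM (0.28 ± 0.15, adjusted p = 0.330), overlapped between genotypes and did not pass. Tbx1 gave 3 to 9 counts per mouse and was not tested.

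The same genes gave counts in cells that should lack them. Levels of Sox9 and, in T cell-like cells, Foxc1 did not overlap between genotypes there. The share of all genes without overlap was not counted in these classes, so this has no background and is not read as a result. In T cell-like cells, Foxc1 was at 4.64 and 7.03 CPM in controls and 28.6 and 30.8 CPM in CerS4epi-/- mice. Sox9 was at 37.1 and 21.1 CPM against 48.6 and 89.7, and Gata6 at 0, 21.1, 11.4 and 25.2 CPM, from 0 to 9 counts and with overlap. Tcf7l1 gave 0 to 5 counts per mouse there. In Langerhans cell-like cells, Sox9 was at 8.49, 11.5, 46.6 and 17.0 CPM, from 2, 2, 8 and 3 counts. Foxc1, at 21.2, 17.2, 17.5 and 33.9 CPM, Gata6, at 29.7, 17.2, 23.3 and 45.2 CPM, and Tcf7l1, at 8.49, 0, 23.3 and 5.65 CPM, overlapped between genotypes in these cells. All of these rest on 32 counts or fewer per mouse, and in CerS4epi-/- mice they reached a size like that of the IFE basal-like levels of Foxc1 and Gata6. The share of IFE basal-like cells with a Gata6 UMI was 3.73% and 2.25% in controls, where it was 2.67% and 6.67% in Langerhans cell-like and 0% and 1.54% in T cell-like cells (2 and 3 Langerhans cell-like cells and 0 and 1 T cell-like cells with a UMI). Median depths were 2649.5 to 3056 counts in IFE basal-like and 2539 to 3296.5 in Langerhans cell-like cells, and 1541 to 1922 in T cell-like cells. In CerS4epi-/- mice the share in IFE basal-like cells was 7.44% and 10.3%, against 4.35% and 7.55% in Langerhans cell-like and 2.19% and 2.14% in T cell-like cells. Upper hair follicle-like cells were 7.76%, 5.45%, 16.6% and 18.1% of all cells, more in the mice with the higher levels outside the follicle. The upper follicle markers summed to 589, 872, 1733 and 4079 CPM in T cell-like cells. In Langerhans cell-like cells they summed to 2071, 1455, 4606 and 5097 CPM. The part of free RNA in the IFE basal-like result was not tested. Gata6-positive basal cells of the controls held Fst in 53.1% and 27.9% of cells, against 7.30% and 4.82% of the other basal cells. In CerS4epi-/- mice these shares were 46.5% and 37.6% against 15.7% and 13.9%. The Fst shares were not thinned, so depth of the cells enters them.

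Fst (follistatin), among the closest genes of Nfatc1 and Gata6, was also looked at in IFE basal-like cells. Sostdc1, a secreted BMP and Wnt inhibitor on none of the gene lists used here, was looked at beside it. Sostdc1 was at 128 and 102 CPM in controls and 220 and 212 CPM in CerS4epi-/- mice, and Fst at 59.1 and 32.1 CPM against 104 and 110. No test of these 2 genes is given here. The share of all genes whose levels did not overlap was not counted, so this is not read as a result. Sostdc1 was found in 49.0% to 60.2% of Sox9-positive basal cells per mouse and in 12.1% to 29.4% of the others. Without the cells that held a Fst or Sostdc1 UMI, the log2 fold changes of Sox9 (1.92), Foxc1 (1.92) and Gata6 (2.16) were larger and still passed, and Tcf7l1 (0.98) did not.

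In IFE differentiated-like cells, Sox9 and Nfatc1 rose from low levels, 2 of 6 members tested, where 3.21% of 12677 genes passed (2.11% higher and 1.1% lower). Sox9 was at 18.4 and 18.7 CPM against 26.8 and 27.9 (0.56 ± 0.11, adjusted p = 0.0318), and Nfatc1 at 20.4 and 18.5 CPM against 27.6 and 34.0 (0.66 ± 0.13, adjusted p = 0.0355). The genotypes lay apart in both. The call of Sox9 held in 6 of 12 and that of Nfatc1 in 9 of 12 other ways of processing. In T cell-like cells Sox9 was at 37.1, 21.1, 48.6 and 89.7 CPM and Nfatc1 at 46.4, 70.3, 48.6 and 53.3 CPM. The Nfatc1 values overlapped between genotypes there. Whether they are free RNA or transcripts of the T cell-like cells themselves was not tested, so they do not gauge free RNA. The upper follicle markers of IFE differentiated-like cells summed to 783 and 926 CPM in controls and 1322 and 1836 CPM in CerS4epi-/- mice. The part of free RNA in these 2 rises was not tested. Lhx2 gave 5 to 40 counts per mouse (-1.06 ± 0.86, adjusted p = 0.545), and Tcf7l1 (0.27 ± 0.37), Foxc1 (0.38 ± 0.22) and Gata6 (0.28 ± 0.36) did not pass.

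Levels summed over a class do not tell how many cells carried a transcript. Cells differ in depth, and outer bulge-like cells held a median of 3210, 3247, 5400 and 4287.5 counts, so each cell was also thinned to 1200 counts. In outer bulge-like cells, Lhx2 was found in 55.1% and 46.4% of control cells and in 53.4% and 52.1% of CerS4epi-/- cells, which overlapped. After thinning, the shares were 39.0% and 28.6% against 24.1% and 22.7%, with no overlap. Nfatc1 was found in 59.6% and 66.1% against 44.2% and 31.1%, and after thinning in 35.6% and 32.0% against 15.7% and 12.4%. Foxc1 was found in 53.9%, 57.1%, 43.2% and 33.6% of cells, and Gata6 in 37.1%, 30.4%, 25.3% and 18.1%. Thinned, the shares of Foxc1 were 32.9%, 29.3%, 15.0% and 11.8%, and those of Gata6 18.2%, 18.1%, 8.79% and 5.48%. At equal depth the shares of these 4 factors thus went with their lower class levels. A thinned share also falls when each cell holds fewer counts of a gene. It therefore cannot tell fewer cells with a transcript from less transcript per cell. Sox9 was found in 76.4%, 78.6%, 79.1% and 87.4% of cells, and after thinning in 56.6%, 57.6%, 61.1% and 69.2%.

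Over the 7 factors, 3 shares lay higher and 3 lower without overlap in outer bulge-like cells before thinning, and 3 and 4 after it. Among 8135 genes, 53.5% lay higher and 8.27% lower before thinning, a background that the greater depth of the CerS4epi-/- cells enters. After thinning, 24.5% lay higher and 25.7% lower. Among IFE basal-like cells, 6 of 7 shares lay higher and 0 lower, before and after thinning, where 33.3% of genes lay higher and 16.1% lower before it and 19.7% and 36.5% after it. Lhx2 joined and Tbx1 dropped out on thinning. Sox9 was found in 9.26% and 8.01% of control and 21.6% and 22.0% of CerS4epi-/- basal cells, and after thinning in 6.03% and 5.06% against 13.3% and 14.3%. For upper hair follicle-like cells 2 shares lay higher and 2 lower (44.5% and 14.6% of genes), and after thinning 2 and 3 (24.7% and 29.8%), of which Sox9 went against its class level and is not read. Among inner bulge-like cells 4 lay higher and 0 lower (40.1% and 6.33%), and after thinning 3 and 1 (19.7% and 18.9%). In IFE differentiated-like cells 5 lay higher and 0 lower before thinning (44.9% and 10% of genes) and 2 and 0 after it (22.4% and 25.4%). For each single share the exact permutation test cannot go below p = 0.33.

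**Figure D3:**
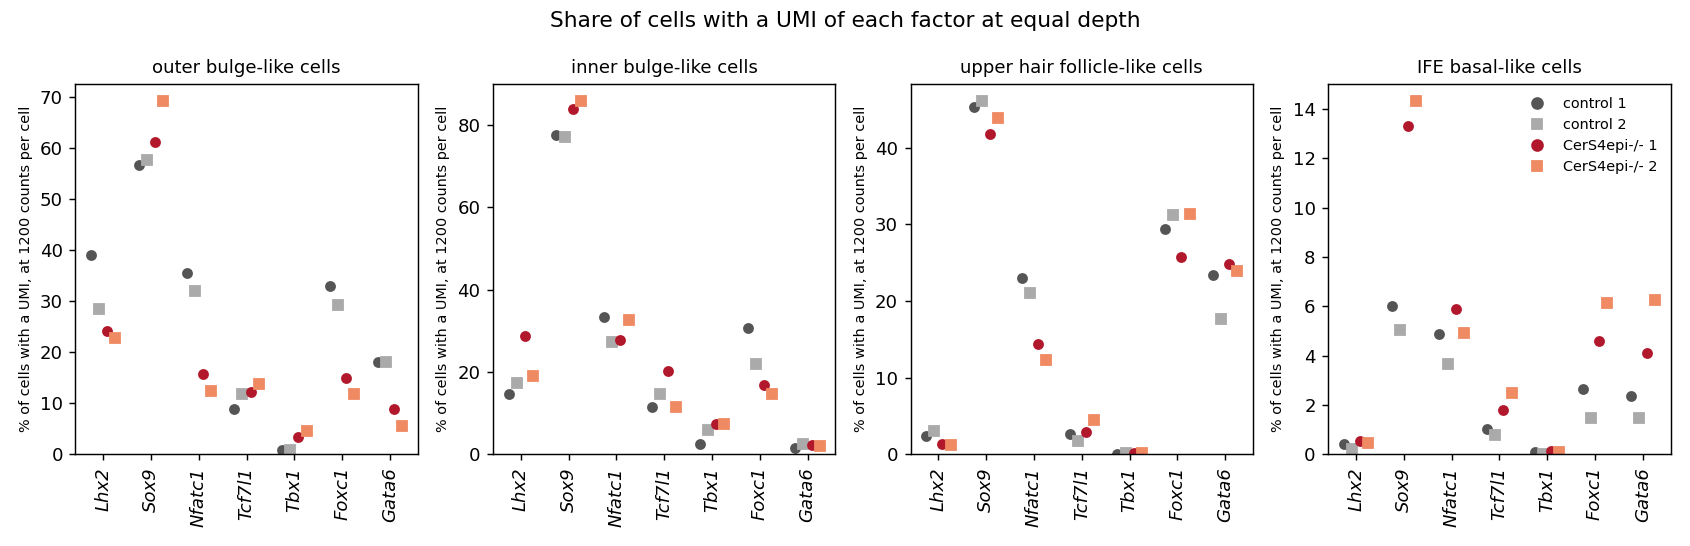
Percent of cells of a class with at least 1 estimated count of each factor after every cell was thinned to 1200 counts; each point is 1 mouse, coloured by genotype. In outer bulge-like cells Nfatc1 was found in 35.6% and 32.0% of control cells and in 15.7% and 12.4% of CerS4epi-/- cells, and in IFE basal-like cells Sox9 in 6.03% and 5.06% against 13.3% and 14.3%.

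Single cells mostly held several of the factors at once in the bulge. At least 3 of the 7 were found in 62.9%, 58.9%, 60.3% and 58.4% of outer bulge-like cells, with no separation by genotype before thinning. The numbers of factors per cell were not thinned in any class, so depth enters them. Median depth in outer bulge-like cells was 3210, 3247, 5400 and 4287.5 counts. For upper hair follicle-like cells this share was 41.2%, 36.0%, 42.5% and 45.1%, and in inner bulge-like cells 61.3%, 60.3%, 78.4% and 69.8%. Among IFE basal-like cells it was 1.52% and 0.760% in controls and 4.13% and 4.80% in CerS4epi-/- mice. Of these basal cells, 77.1% and 81.8% of the control cells and 61.0% and 60.3% of the CerS4epi-/- cells held none of the 7. All 7 together were found in 1, 0, 7 and 0 outer bulge-like cells.

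Most pairs of factors that could be measured were found together more often than their separate shares give. The number of cells with both was divided by the number expected if the 2 were independent within a class and mouse, for the pairs with at least 5 expected cells in every mouse. In outer bulge-like cells 13 of 14 such pairs were above 1 in all 4 mice (11 after thinning), with a median ratio of 1.24. Pairs of other genes were not counted, so the numbers of pairs above 1 have no background in any class. Foxc1 and Gata6 met in 25, 15, 54 and 21 cells, 1.40, 1.54, 1.69 and 1.45 times the expected number. For Lhx2 and Tcf7l1 the ratios were 1.51, 1.75, 1.43 and 1.27. The exception was Lhx2 with Gata6, at 1.27, 1.39, 1.11 and 0.94.

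In upper hair follicle-like cells 11 of 14 pairs were above 1 in all mice (10 after thinning), with Foxc1 and Gata6 at 1.20 to 1.23 in 104 to 513 cells. Lhx2-positive cells of this class were few, 24 to 53 per mouse. They held Nfatc1 in 82.1%, 58.3%, 62.3% and 54.9% of cells, against 47.6%, 43.1%, 36.6% and 32.7% of the other cells. Tcf7l1 was found in 28.6%, 33.3%, 37.7% and 49.0% of them, against 4.60%, 1.91%, 7.56% and 12.5% of the others. The bulge factors thus met in a small set of cells of this class in every mouse, with 8 to 25 cells holding both Lhx2 and Tcf7l1. For that pair the expected number was as low as 0.824, below the limit of 5 set for the ratios. Doublets were not called, and whether these were upper follicle cells, bulge cells that passed the gate or doublets was not tested. In inner bulge-like cells 8 of 12 pairs were above 1 in all mice, and 5 after thinning, when 1 pair, Nfatc1 and Tbx1, was below 1 in all mice (0.89, 0.42, 0.96 and 0.48).

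Among basal cells of the IFE 7 of 7 pairs were above 1 in all mice, before and after thinning, with a median of 1.75 and 2.36. Sox9 and Foxc1 met in 59, 37, 133 and 151 cells, where 13.6, 7.21, 59.6 and 66.9 were expected, ratios of 4.33, 5.13, 2.23 and 2.26. Sox9 and Gata6 had ratios of 4.82, 4.50, 2.23 and 2.14. The ratios were lower in CerS4epi-/- mice, where each factor alone was found in more cells, and the highest ratio a pair can reach falls as the shares rise. Of Sox9-positive basal cells, 18.3%, 12.1%, 18.7% and 23.3% held Foxc1, against 2.78%, 1.51%, 5.54% and 6.68% of Sox9-negative ones. Depth differs between cells within a class and enters these ratios, and the thinned values (4.88, 6.39, 2.52 and 2.38 for Sox9 and Foxc1) still stood above 1.

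**Figure D4:**
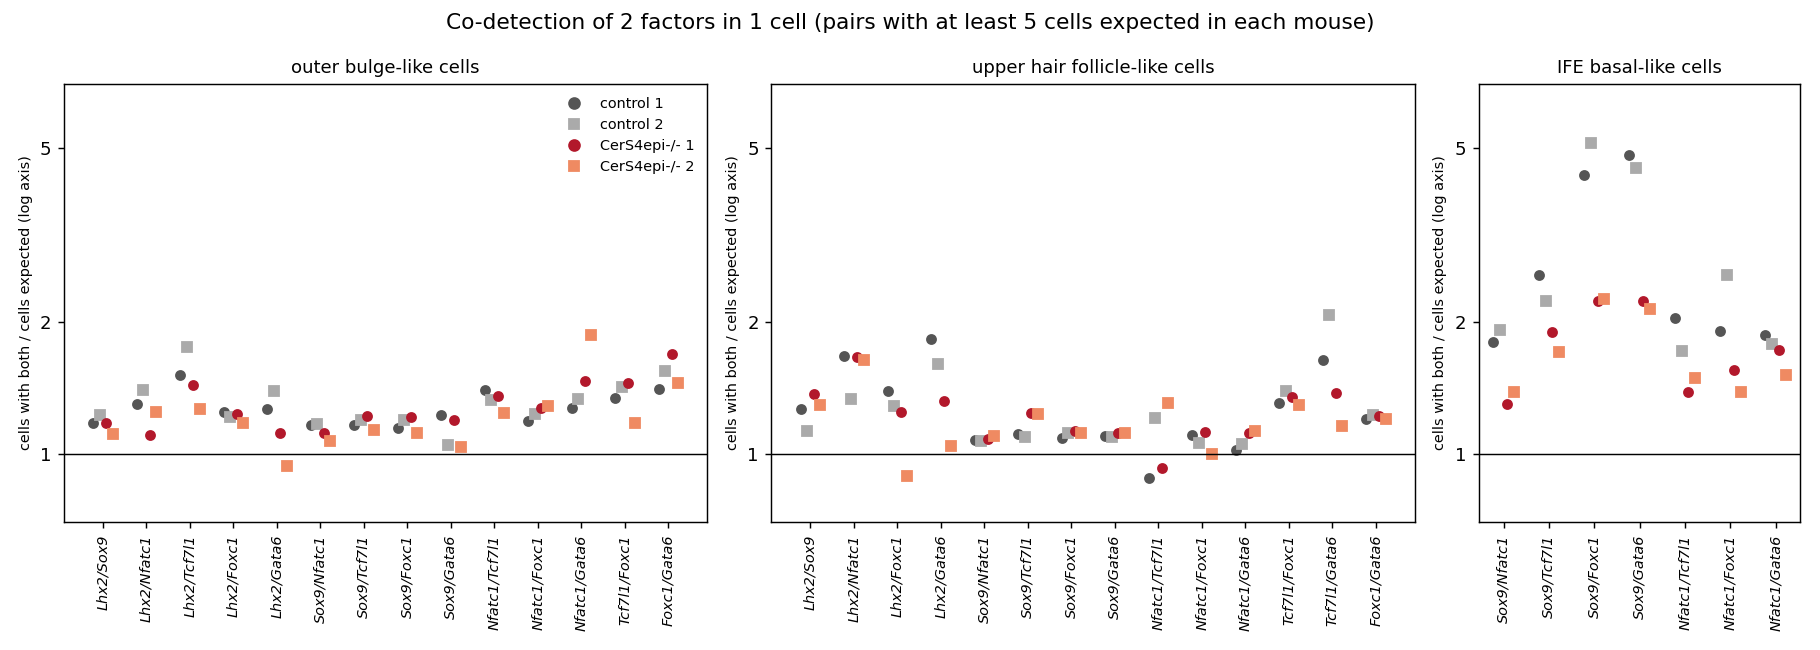
Cells with both factors divided by the number expected from their separate shares, for pairs with at least 5 expected cells in every mouse in 3 classes, on a logarithmic axis; each point is 1 mouse, and the line at 1 marks independence. In IFE basal-like cells Sox9 and Foxc1 stand at 4.33 and 5.13 in controls and 2.23 and 2.26 in CerS4epi-/- mice, while outer bulge-like pairs centre on 1.24.

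Paralogues and other skin transcription factors gave the setting. Of 23 paralogues of the members, 5 or 6 passed the filter on low counts in each class. In outer bulge-like cells 0 of 5 passed the test (6.29% of all genes did), with a median log2 fold change of -0.45 against 0.02 over all genes. Among upper hair follicle-like cells 1 of 6 rose, the Tcf7l1 relative Tcf7l2 (0.80). There 2 fell, Gata3 (-0.75), a factor of epidermal differentiation, and Nfat5 (-0.42), where 6.98% of all genes rose and 5.71% fell. Gata3 also fell in inner bulge-like cells (-1.07) and, with Nfatc3 (-0.33), in IFE basal-like cells (-0.49). Of all genes, 3.32% fell in inner bulge-like and 2.69% in IFE basal-like cells. In IFE basal-like cells Gata3 was at 770, 810, 557 and 520 CPM while Gata6 rose. No paralogue passed in IFE differentiated-like cells, by edgeR, where 3.21% of all genes did.

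Of 44 other skin transcription factors, 3 rose and 7 fell of 39 tested in outer bulge-like cells, where 2.87% of all genes rose and 3.41% fell. The largest of these differences were higher: Sox4 (2.57), Irx4 (2.38) and Runx1 (1.51), the last a factor of follicle activation. Among upper hair follicle-like cells 7 rose and 2 fell of 41 (6.98% and 5.71% of all genes), again led by Irx4 (2.63), Sox4 (1.82) and Runx1 (1.74). In those 2 classes Irx4 was at 2.95, 17.2, 38.6 and 52.7 CPM and at 2.87, 0.476, 8.64 and 13.8 CPM. It passed the low-count filter there only with the CerS4epi-/- mice, so its place among the 3 and the 7 is not read as a result. Gli3, another of the 7, was also low in controls (1.43, 3.33, 5.85 and 6.77 CPM) and is not read either. Among IFE basal-like cells 14 rose and 3 fell of 42 (4.15% and 2.69% of all genes). The largest differences were those of Pparg, Gli2 (1.48), a Hedgehog effector, and Irx4 (1.43). Pparg, a sebaceous factor and 1 of the sebaceous gland gate markers, was at 0.192, 0, 1.22 and 2.41 CPM. It passed the low-count filter only through the CerS4epi-/- mice, so its place among the 14 is not read as a result. Barx2 alone rose in inner bulge-like cells (0.91, 1 of 27, with 2.11% of all genes higher). In IFE differentiated-like cells 3 rose and 1 fell of 40 (2.11% and 1.1% of all genes), led by Prdm1 (1.15), Ovol1 (0.94) and Barx2 (0.58). The medians of this list were -0.08, 0.00, 0.08, 0.18 and 0.14 in outer bulge-like, inner bulge-like, upper hair follicle-like, IFE basal-like and IFE differentiated-like cells, and the medians over all genes lay between -0.00 and 0.02.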

How the data were processed

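Back skin of 4 mice was digested, cells were labelled with sample tags, and BD Rhapsody whole transcriptome libraries were sequenced. The authors trimmed reads with fastp 0.23.2, read out UMIs and cell barcodes by custom code, and counted with STARsolo (STAR 2.7.10a) on GRCm39 with introns included. The deposited values are expected counts (estimated UMI counts, with multimapping reads shared by expectation maximization), per gene and barcode, neither normalized nor filtered for cells. The strand setting is not given in the sources used here. Of the entries, 4.55% to 4.81% per library were not whole.

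From the counts on, all was computed anew. A barcode was a cell from 1200 counts upward if its mitochondrial share did not pass 20%. Doublets were not called, and the 5% deepest cells were left out as an alternative. Classes came from marker lists, with thresholds set after the data were seen. A marker counted as present at 0.5 estimated counts and a member at 1. Gates for T cell-like, Langerhans cell-like and sebaceous gland-like cells needed 4, 5 and 4 markers, and keratinized cells 2% of counts in their list. Counts were summed per mouse and class, rounded and tested with edgeR 4.0.16 (R 4.3.3; TMM, filterByExpr, quasi-likelihood, Benjamini-Hochberg) in 5 classes. CPM was computed within class and mouse, and intervals cover counting error only (95%, Poisson). The scripts were tested on simulated data with known changes. Of 2-fold changes, 22% were found in outer bulge-like and 33.3% in inner bulge-like cells, and 69.4% to 86% in the other classes. Of 4-fold changes, 80.2% and 93.2% were found in the 2 bulge classes. A bulge value that did not pass is therefore not evidence of no change. In the same runs, 2 unchanged genes were called in outer bulge-like, 6 in inner bulge-like and 10 in upper hair follicle-like cells. In IFE basal-like cells 21 were called, beside 76 2-fold and 96 4-fold changes found. In IFE differentiated-like cells 22 were called, beside 86 and 88. A call in these classes can therefore be false. Alternatives were DESeq2 1.42.0 and its size factors, no low-count filter, a replicate block, each mouse left out, stricter cell filters and other gates.

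The members, the lists and the gates were chosen with earlier results of these data known. All 7 members are named, with the 3 genes most alike to each in control mice (among genes of at least 20 CPM; 1 is not reported here) and, of 2 lists of transcription factors, the 3 largest changes that passed. Gene positions came from the Gencode annotation of GRCm39 provided here. Promoters came from a RefSeq table (GRCm38.p6), of which those of 4 of the 7 members were searched. Promoters of Nfatc1 and Gata6 were not searched, and the table held no entry for Sox9. Replicates are separate mice, 2 per group.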

Additional observations from a re-analysis of the deposited data

Results flagged for a closer look

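Foxc1, Gata6 and Nfatc1 differed in their genotype effect between outer bulge-like and upper hair follicle-like cells of the same mice, by the test of the difference itself. The difference of the log2 fold changes was -1.41 for Foxc1, -2.03 for Gata6 and -0.94 for Nfatc1 (edgeR). Without outer bulge-like cells that also passed the upper hair follicle gate, Foxc1 still passed, and Gata6 and Nfatc1 did not. For Gata6 the effect changed sign, from a fall in outer bulge-like cells to a value above 0 that did not pass in upper hair follicle-like cells. In CerS4epi-/- mice the summed upper follicle markers were also lower in outer bulge-like cells and higher in upper hair follicle-like cells. Their part in these differences was not tested.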

How the results depend on the processing

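Each control value in the bulge rests on 56 to 89 cells, the thresholds of the classes were set after the data were seen, and a cartridge per genotype, if used, cannot be told apart from genotype. Over all alternatives, 153 of 205 repeats of a passing log2 fold change of a member still passed, 52 no longer did and 0 changed sign.

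The number of genes passing moved most. In outer bulge-like cells (512) it was 256 with DESeq2, 861 without the low-count filter, 194 with at most 10% mitochondrial counts, 106 with stricter gates, 132 with 3 markers, 127 without cells of the upper hair follicle gate and 0 with the gate on Cd34, Postn and Lgr5 (edgeR, 179 at an unadjusted p under 0.05), and 280 to 572 with 1 mouse left out. In inner bulge-like cells (224) it was 54 with DESeq2, 132 at 10% mitochondrial counts, 58 without the deepest cells, 83 with stricter gates and 132 to 230 with 1 mouse left out. In upper hair follicle-like cells (1440) it was 702 with DESeq2, 574 without Plet1 cells and 1209 to 1769 with 1 mouse left out. In IFE basal-like cells (880) it was 503 with DESeq2, 1840 without the filter, 509 at 10% mitochondrial counts, 479 without Fst or Sostdc1 cells and 351 to 831 with 1 mouse left out. In IFE differentiated-like cells (407) it was 1301 without the filter, 189 without the deepest cells and 99 to 375 with 1 mouse left out. For the difference between classes (223) it was 376 without the filter, 52 with stricter gates and 101 to 313 with 1 mouse left out. Shares of cells apart in IFE differentiated-like cells went from 5 to 2 on thinning, and inner bulge-like pairs above 1 from 8 to 5. Without the filter, the median log2 fold change of all genes in outer bulge-like cells was 0.217.

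The main test did not treat mice of equal replicate number as pairs, and the labels give no shared litter or day. Deviations of such mice from their group means correlated at r = -0.04 to 0.21 over 5 classes. The highest value was in IFE differentiated-like cells. With the replicate block 264 genes passed in outer bulge-like, 350 in inner bulge-like, 1479 in IFE basal-like and 1676 in IFE differentiated-like cells, and 14 of 15 calls of members were kept, all but Sox9 in outer bulge-like cells.

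Signs changed for members that had not passed. In IFE basal-like cells Lhx2 was -0.046 to 0.87 with 1 mouse left out. In upper hair follicle-like cells Sox9 was -0.28 without Plet1 cells, and Foxc1 was -0.063 to 0.27 with 1 mouse left out, -0.050 in Plet1 cells and -0.18 in the others. The difference between classes was, for Lhx2, -0.31 to 0.20 with 1 mouse left out, 0.13 without the deepest cells, 0.21 with stricter gates and 0.24 without cells of both gates. It was 0.35 for Tcf7l1 with stricter gates, and for Tbx1 -4.13 to 2.63 with 1 mouse left out, -0.25 with 2000 counts, -0.64 at 10% mitochondrial counts and -0.27 with stricter gates. The cause of these changes was not tested.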
